A study of Mus musculus with 2 samples.

Results

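The genes described here are 27 members of the cholesterol synthesis pathway and of the SREBP2 system that controls it, chosen by name from the 32285 genes of the count tables. They comprise 20 enzymes and 7 regulators or carriers. The rule that chose them used no measured value, but earlier results of these data were known when they were chosen. All 27 were present in both tables, and each was followed across 14 cell classes and between STK and DMSO.

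The cells came from hepatocellular carcinomas of mice with the MYC-ON genotype, a label that names no promoter or driver line, after gavage with DMSO, the vehicle, or with STK, an agent the labels do not describe further. Live CD45+ cells, meaning cells stained for the leukocyte surface antigen, were sorted from dissociated tumours and profiled with a droplet method that reads the 5′ ends of transcripts and counts molecules by UMI. Each group was 1 library, with 11784 DMSO and 11672 STK barcodes holding 79322966 and 81859811 UMIs under 1 batch label, and the labels leave out how many animals gave each library, their age and their sex. Differences between the libraries therefore have no replicates and no test, and every interval below is an exact 95% interval for counting error only.

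Filters on depth and mitochondrial RNA kept 11152 DMSO and 10846 STK cells (median depth 4471.5 and 4930.5 UMIs), and 203 barcode sequences occurred in both libraries. Marker gates placed 7581 and 7401 of these cells in 13 immune classes or in a class of hepatocyte or tumour-like cells, and no member gene is a gate marker. The hepatocyte or tumour-like class held 1169 and 839 cells with 4.70 and 5.68 CPM (UMIs of a gene per 1000000 UMIs of the class) of Ptprc, the gene of CD45. The immune classes had 210.1 to 1194 CPM of it, so the former cells do not match the label of the sort. Transcripts of the hepatocyte markers were found in every immune class, at 1.27% to 3.11% of their level in hepatocyte or tumour-like cells in lymphocytes and dendritic cells, 3.73% to 5.74% in monocytes and macrophages, and 6.16% to 6.34% in neutrophils. Cells with a Y-linked UMI and no Xist were called male. A call could rest on 1 UMI, and cells with both or neither had no sex call. Cells with Xist and no Y-linked UMI, called female here, made up 3.41% to 41.5% of the sexed cells of a class in DMSO and 53.7% to 84.4% in STK. Sex and treatment therefore cannot be told apart at the level of libraries, and female and male cells of 1 library come from different animals where the calls are right.

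Cells make cholesterol from acetyl-CoA through mevalonate, farnesyl diphosphate, squalene and lanosterol, and the mevalonate branch also feeds protein prenylation, dolichol and ubiquinone. SREBP2, encoded by Srebf2, is held in the endoplasmic reticulum by Scap and the Insig proteins while sterol is plentiful. When sterol is low it is carried to the Golgi and cut by the proteases encoded by Mbtps1 and Mbtps2, and the released part switches on the genes of the pathway. In the liver this control sets the supply of cholesterol for lipoproteins and bile acids. The thiolases Acat1 and Acat2 among the members are not the sterol esterifying enzymes Soat1 and Soat2, whose proteins share the older name ACAT.

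Promoter windows show a property that the choice of members did not use. RefSeq windows on GRCm38.p6, from 250 bases before to 50 bases after each start site, were found for 22 of the 27 members. The nuclear factor Y motif CCAAT, on either strand, occurred in a window of 18 of the 22 members (81.8%) and of 41.1% of 27025 genes. The GC box GGGCGG, on either strand, occurred for 19 of 22 members (86.4%) and 38.2% of genes. The sterol regulatory element form TCACNCCAC occurred for 1 of 22, Hmgcs1, and for 1.44% of genes. A match of letters is a description and not a bound site. The 150 bases before the start site are shown for 5 members on which results below turn and whose window lies wholly outside the gene, read 5′ to 3′ on the gene's own strand. Capitals mark CCAAT or its reverse complement and, for Hmgcs1, also the sterol element. The windows lie at chr13:119690201-119690350 on the plus strand for Hmgcs1, chr8:122443423-122443572 on the minus strand for Mvd, chr3:89454391-89454540 on the plus strand for Pmvk, chr13:14063489-14063638 on the minus strand for Ggps1, and chr9:42264301-42264450 on the minus strand for Sc5d.
Hmgcs1: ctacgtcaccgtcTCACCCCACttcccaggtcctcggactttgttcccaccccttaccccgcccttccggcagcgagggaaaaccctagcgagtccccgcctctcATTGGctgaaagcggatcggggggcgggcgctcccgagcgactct
Mvd: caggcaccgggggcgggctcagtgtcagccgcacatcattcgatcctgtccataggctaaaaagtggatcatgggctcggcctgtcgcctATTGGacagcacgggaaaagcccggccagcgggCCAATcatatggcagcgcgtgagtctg
Pmvk: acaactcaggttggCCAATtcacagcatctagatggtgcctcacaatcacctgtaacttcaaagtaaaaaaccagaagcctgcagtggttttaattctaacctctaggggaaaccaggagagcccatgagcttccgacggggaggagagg
Ggps1: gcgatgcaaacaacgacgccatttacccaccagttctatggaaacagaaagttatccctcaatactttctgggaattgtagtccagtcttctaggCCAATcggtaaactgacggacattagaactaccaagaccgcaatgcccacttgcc
Sc5d: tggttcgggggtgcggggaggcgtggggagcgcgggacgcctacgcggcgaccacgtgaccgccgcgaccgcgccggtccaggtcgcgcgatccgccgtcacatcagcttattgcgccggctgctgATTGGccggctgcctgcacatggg
The sterol element of Hmgcs1 lay 137 to 129 bases before its start site. Mvd had 2 CCAAT motifs within these 150 bases and each of the others had 1. Pmvk also had a downstream RefSeq window, chr3:89459321-89459620, with no CCAAT and no GC box. It therefore counts among the 18 members through the upstream window, part of which is shown. Dhcr7 and Insig2 likewise had windows without CCAAT beside one that held it.

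The first comparison asked which cells of the tumour carried the pathway. Hepatocyte or tumour-like cells had the highest summed level of the 27 genes, 1844 CPM in DMSO and 1850.3 CPM in STK. Among immune cells, plasmacytoid dendritic cell (pDC)-like cells came first with 1063 CPM (1028 to 1099.7) and 1003 CPM (973 to 1034), and migratory dendritic cell-like cells second with 897 CPM (841 to 957) and 928 CPM (875 to 984). Neutrophil-like cells came last with 343 CPM (299.7 to 391) and 375 CPM (326 to 429). Over the median immune class, hepatocyte or tumour-like cells stood 3.42-fold and 3.14-fold higher, and pDC-like cells 1.97-fold and 1.70-fold higher. Below these leading classes the levels were closer, between 728 CPM in cDC1-like and 443 CPM in macrophage-like cells of DMSO, and the intervals of most neighbours in that order overlapped.

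**Figure D1:**
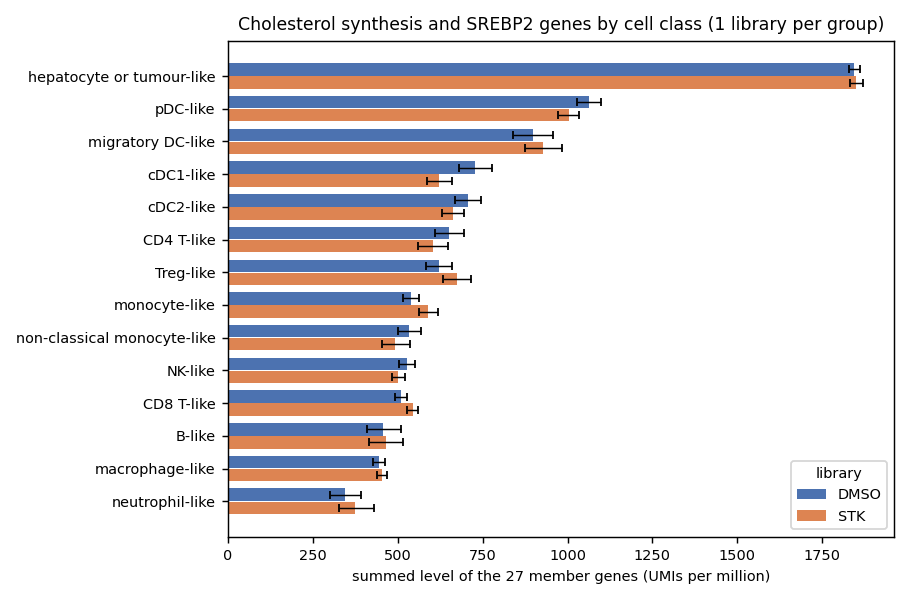
Summed CPM of the 27 member genes (horizontal axis) in 14 cell classes, with DMSO and STK bars and exact 95% Poisson intervals for counting error. Hepatocyte or tumour-like cells sit at 1844 and 1850.3 CPM, pDC-like cells at 1063 and 1003 CPM, and neutrophil-like cells at 343 and 375 CPM.

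The hepatocyte transcripts found in immune classes touch these levels unequally. If every hepatocyte marker UMI of an immune class came with members at the ratio seen in hepatocyte or tumour-like cells, it would equal 2.53% to 5.97% of the members' CPM in pDC-like and other dendritic cell classes and 6.23% to 12.0% in lymphocyte classes. The same figure is 14.8% to 21.4% in monocyte and macrophage classes and 31.3% to 33.1% in neutrophil-like cells. For Fdft1 it would equal 51.5% and 73.7% of the level in monocyte-like cells and 54.6% and 68.9% of that in macrophage-like cells. Their part in the results was not tested.

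Hepatocyte or tumour-like cells exceeded every immune class in both libraries for 14 of the 27 members, against 23.2% of the 11852 genes with at least 100 UMIs in immune cells. The 14 were Acat1, Acat2, Hmgcs1, Mvd, Fdps, Fdft1, Sqle, Lss, Tm7sf2, Nsdhl, Sc5d, Dhcr7, Insig1 and Stard4. They were at least 1.5-fold above the median immune class for 22 members (34.4% of genes) and below it for none (28.7%). Fdft1, squalene synthase, had 182 CPM in DMSO and 187 CPM in STK, 3.99-fold and 5.12-fold above the highest immune class. Sqle, squalene epoxidase, had 58.2 and 56.1 CPM, 3.58-fold and 3.39-fold above it. Lss, lanosterol synthase, had 34.6 and 31.4 CPM, 3.82-fold and 3.91-fold above it, so all 3 genes from squalene to lanosterol stood far above the immune classes. Acat2, the cytosolic thiolase of the first step, had 103 and 84.0 CPM, 5.17-fold and 4.29-fold above the highest immune class. Stard4, a carrier that moves cholesterol between membranes, had 94.3 and 96.2 CPM, 3.60-fold and 3.61-fold above it.

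Several members did not follow that order. Ggps1, which makes geranylgeranyl diphosphate for protein prenylation, had 18.1 and 16.4 CPM in the hepatocyte or tumour-like class and 37.5 and 25.6 CPM in Treg-like, 39.2 and 30.2 CPM in CD4 T-like and 38.2 and 33.7 CPM in CD8 T-like cells. Pmvk, phosphomevalonate kinase, had 58.5 and 59.5 CPM in that class, 0.351 and 0.311 times its level in migratory dendritic cell-like cells. Ebp, the sterol isomerase, had 74.7 and 90.3 CPM there, below the 111 and 116 CPM of Treg-like cells, its highest class in both libraries. Srebf2 itself had 58.6 and 62.5 CPM in that class and 91.6 and 83.7 CPM in cDC1-like cells, its highest immune class in both libraries. For Srebf2 the intervals of cDC1-like and pDC-like cells, the latter with 85.4 and 81.7 CPM, overlapped.

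pDC-like cells were at least 1.5-fold above the median of the other immune classes, in both libraries, for 18 of the 27 members, against 23.3% of all genes tested, and below it for none (13.4%). They were the highest immune class in both libraries for 10 members, against 11.8% of all genes. These were Sqle, Lss, Tm7sf2, Msmo1, Sc5d, Dhcr7, Scap, Mbtps1, Mbtps2 and Insig1, which lie after squalene in the pathway or belong to the SREBP2 machinery. Msmo1, a methylsterol oxidase that works after lanosterol, had 50.7 CPM in DMSO and 47.5 CPM in STK in pDC-like cells, against medians of 12.7 and 12.2 CPM. Scap, the sterol-sensing escort of SREBP2, had 59.1 and 69.9 CPM against medians of 12.4 and 13.6 CPM, 4.78-fold and 5.13-fold higher. Insig1, its retention partner and itself a target of SREBP2, had 58.8 and 61.7 CPM against 21.8 and 27.3 CPM. Dhcr7, the reductase that forms cholesterol at the end of one branch, had 37.2 and 32.4 CPM against 14.2 and 9.76 CPM. The proteases that release SREBP2 had 31.9 and 40.2 CPM for Mbtps1 and 17.8 and 13.5 CPM for Mbtps2.

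Migratory dendritic cell-like cells had a different profile. They were above the median by the same fold for 10 members, against 12.8% of all genes, and below it for 6, against 31.5%. Idi1, isopentenyl diphosphate isomerase, had 152 CPM in DMSO and 124 CPM in STK, against medians of 18.9 and 16.0 CPM. Pmvk had 167 and 191 CPM against 23.3 and 22.5 CPM, 7.15-fold and 8.52-fold higher. Hmgcs1, the cytosolic HMG-CoA synthase, had 54.3 and 49.9 CPM, and Cyp51, the lanosterol demethylase, 60.1 and 58.9 CPM, and both were highest there among immune classes in both libraries. The genes below were Acat1, Acat2, Ggps1, Dhcr7, Mbtps2 and Insig2. Dhcr7 had 1.94 CPM in DMSO, from 2 UMIs, and 4.09 CPM in STK, from 5 UMIs, against medians of 15.2 and 10.6 CPM. In these cells the mevalonate genes summed to 274 and 317 CPM and the isoprenoid genes to 242 and 220.0 CPM, the highest of the immune classes, while the regulators, at 135 and 149 CPM, ranked 9 of 13 in both libraries. Pmvk alone gave 167 and 191 CPM of the mevalonate sum, and Idi1 152 and 124 CPM of the isoprenoid sum. pDC-like cells came second for both sums, with 234 and 213 CPM and 188 and 174 CPM, and for Pmvk and Idi1.

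**Figure D2:**
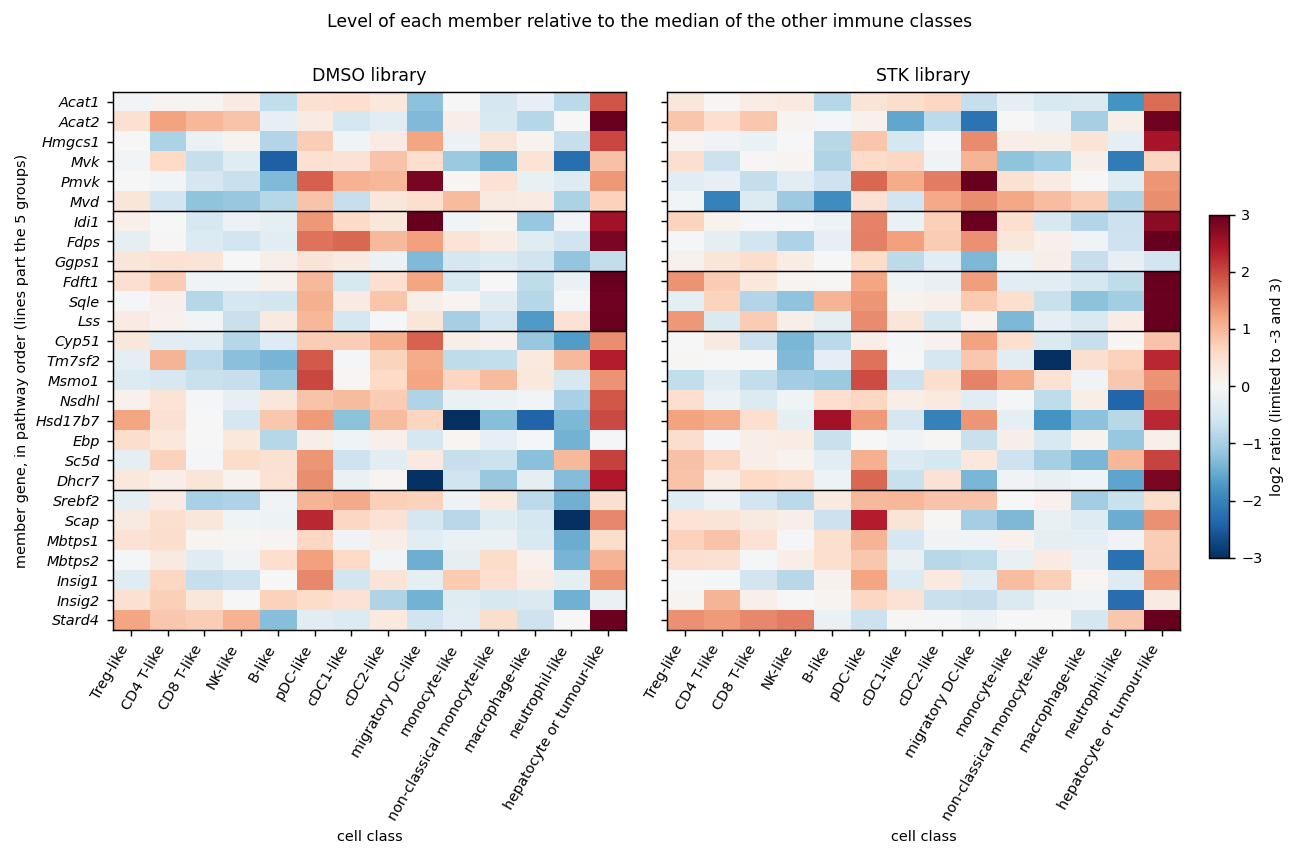
Each member (rows, in pathway order) in each cell class (columns), as the log2 ratio of its CPM to the median of the other immune classes, for DMSO (left) and STK (right), with the colour scale limited at both ends. The pDC-like and hepatocyte or tumour-like columns are red over most rows, and the migratory dendritic cell-like column is red at Pmvk and Idi1 and blue at Acat2, Ggps1 and Dhcr7.

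The remaining immune classes stood apart for fewer members. cDC1-like and cDC2-like cells were above the median for 3 members each, Pmvk, Fdps and Srebf2, against 13.2% and 12.9% of all genes. cDC1-like cells were below it for none (17.6%) and cDC2-like cells for Insig2 (9.64%). Fdps, farnesyl diphosphate synthase, had its highest immune level in cDC1-like cells of DMSO, 109.9 CPM, and in pDC-like cells of STK, 95.2 CPM. Stard4 was above the median in the 4 T and NK classes, with 19.0 to 26.2 CPM in DMSO and 22.0 to 26.6 CPM in STK. Treg-like cells were also above it for Hsd17b7, the ketosteroid reductase, with 7.14 and 6.07 CPM from 12 and 9 UMIs. That made 2 members in Treg-like cells (24.4% of genes above), 4 in CD4 T-like (22.2%), 2 in CD8 T-like (20.7%) and 1 in NK-like cells (21.1%), shares below those of all genes. Insig2, the second retention protein, was highest in CD4 T-like cells with 29.3 and 33.4 CPM.

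Counts below the median lay near the share of all genes in B-like, neutrophil-like and both monocyte classes. NK-like cells were below the median for 6 members (13.4% of genes), among them Srebf2 with 24.2 and 25.3 CPM, and CD8 T-like cells for Sqle and Msmo1 (13.7%). B-like cells were below for 7 (22.6%) and above for Hsd17b7 alone (9.78%). Treg-like and CD4 T-like cells were below for none (10.4% and 10.7%). Macrophage-like cells were below for 8 members (14.8%) and above for none (16.3%), with Sqle at 4.38 and 3.10 CPM and Srebf2 at 26.5 and 21.6 CPM. Neutrophil-like cells were below for 12 (38.4%) and above for Tm7sf2 and Sc5d (14.5%). Monocyte-like cells were above for Mvd, Msmo1 and Insig1 (14.9%) and below for Mvk, Lss, Sc5d and Scap (15.8%). Non-classical monocyte-like cells were below for Mvk, Tm7sf2, Hsd17b7 and Sc5d (14.4%) and above for none (14.2%).

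The lowest immune class was the same in both libraries for 9 members. It was migratory dendritic cell-like for Acat2 and Ggps1, macrophage-like for Idi1 and Sc5d, B-like for Msmo1, and neutrophil-like for Nsdhl, Ebp, Scap and Insig2. The extremes were wide for some genes and narrow for others. Idi1 spanned 8.95 to 152 CPM over the immune classes of DMSO, and Ebp, the most abundant member in immune cells, 29.2 to 111 CPM. Hsd17b7 in DMSO monocyte-like cells and Tm7sf2 in STK non-classical monocyte-like cells had no UMI. The highest immune class of Acat1, the mitochondrial thiolase, was cDC1-like in DMSO with 74.1 CPM and cDC2-like in STK with 84.3 CPM, and that of Mvk, mevalonate kinase, was cDC2-like with 11.1 CPM and migratory dendritic cell-like with 14.7 CPM.

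Across the 13 immune classes, Fdps, Srebf2, Pmvk, Mvk, Sqle, Fdft1, Idi1 and Hmgcs1 followed the sum of the other members, with Pearson r of log2 CPM between 0.63 and 0.82 in either library. Cyp51 had r of 0.84 in DMSO and 0.58 in STK. Acat2 had r of -0.17 and -0.30, Stard4 -0.04 and -0.32, and Ggps1 0.21 and -0.16, so these 3 did not follow the sum. The values describe 13 classes that share a library, and the classes also differ in depth, from a median of 1316.5 UMIs per cell in DMSO neutrophil-like cells to 13949 in STK cDC1-like cells.

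A second comparison set cells with at least 2 UMIs of 15 cell cycle genes against cells of the same class and library with none. In CD8 T-like cells the members summed to 568 against 462 CPM in DMSO, a ratio of 1.23 (1.14 to 1.33), and to 592 against 497 CPM in STK, a ratio of 1.19 (1.11 to 1.27). NK-like cells gave 1.26 (1.14 to 1.39) and 1.19 (1.09 to 1.30), and macrophage-like cells 1.16 (1.04 to 1.29) and 1.18 (1.08 to 1.29). cDC2-like cells went the other way, with 578 against 774 CPM in DMSO, a ratio of 0.746 (0.652 to 0.852), and 618 against 755 CPM in STK, 0.819 (0.734 to 0.914). Treg-like and CD4 T-like cells had ratios of 1.06 to 1.13 with intervals that included 1. pDC-like cells, with 33 and 43 cycling cells, had 1.19 (1.05 to 1.36) in DMSO and 0.871 (0.771 to 0.98) in STK. With cycling set at 1 UMI the pDC-like ratios were 0.975 (0.903 to 1.05) and 1.02 (0.958 to 1.09), so neither direction held, and the macrophage-like ratio of DMSO was 1.03 (0.947 to 1.11). Hepatocyte or tumour-like cells had 1858 against 1068 CPM in DMSO, a ratio of 1.74 (1.58 to 1.91), and 1869.6 against 1629 CPM in STK, a ratio of 1.15 (1.07 to 1.23), but only 39 and 41 of these cells had no cell cycle UMI. Those were shallower, with medians of 5465 and 11832 UMIs against 26219 and 26065 in cycling cells. Cycling cells were also deeper among CD8 T-like cells, with medians of 6922 against 3601 UMIs in DMSO, and the part of depth in these ratios was not tested.

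**Figure D3:**
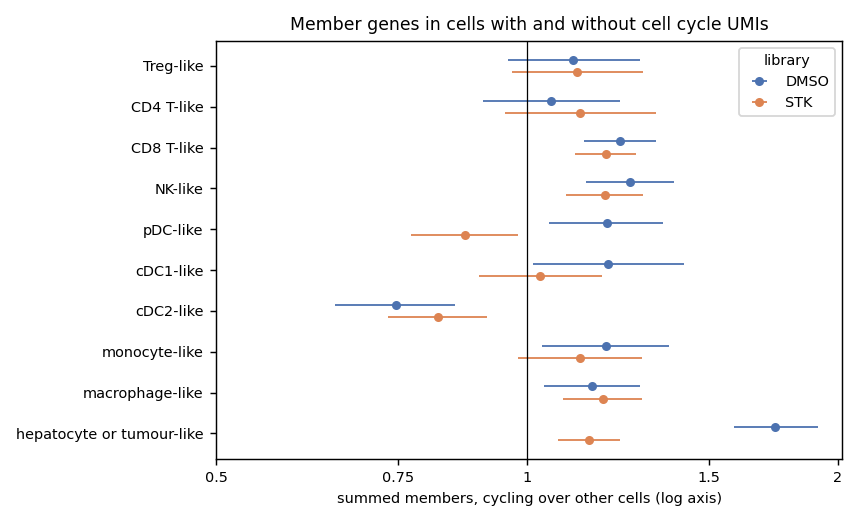
Ratio of the summed members' CPM in cells with at least 2 cell cycle UMIs to cells with none (horizontal log axis), for 10 classes in DMSO and STK, with exact 95% counting intervals. CD8 T-like, NK-like, macrophage-like and hepatocyte or tumour-like cells lie above 1 in both libraries, the macrophage-like ratio of DMSO falling to 1.03 (0.947 to 1.11) with cycling set at 1 UMI, and cDC2-like cells lie below 1 in both.

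Fdps differed in the same direction in both libraries. Its level in cycling against other CD8 T-like cells was 36.0 against 20.7 CPM in DMSO and 31.8 against 17.6 CPM in STK, and in NK-like cells 30.3 against 16.0 CPM and 25.2 against 12.3 CPM. In cDC2-like cells Fdps was instead lower in cycling cells, at 26.1 against 76.1 CPM and 46.9 against 74.2 CPM. Past the 1.5 fold, 5 of 21 members were higher in cycling CD8 T-like cells of DMSO and 5 of 24 in STK, against 21.1% and 18.0% of all genes. In NK-like cells it was 7 of 19 and 6 of 21, against 15.6% and 16.3%. In cDC2-like cells 7 of 13 and 5 of 15 members were lower, against 10.5% of all genes in either library. In hepatocyte or tumour-like cells 15 of 27 members were higher in DMSO and 9 of 27 in STK, against 16.8% and 16.1%, and 1 and 3 were lower, against 38.9% and 28.5%. In macrophage-like cells 6 of 22 and 6 of 23 members were higher, against 9.12% and 9.09%. In pDC-like cells 5 of 22 members were higher in DMSO (12.4%) and none lower (11.2%), while 4 of 25 were higher in STK (9.37%) and 6 of 25 lower (13.1%).

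The third comparison, STK against DMSO, concerned hepatocyte or tumour-like cells first. Over all such cells the members differed little: their sum was 1844 CPM in DMSO and 1850.3 CPM in STK, a ratio of 1.00 (0.99 to 1.02). None of the 27 members passed 1.5-fold in either direction, against 6.06% of 12099 genes higher and 3.67% lower. Ebp had the highest ratio, 1.21 (1.13 to 1.29), with 74.7 and 90.3 CPM. Nsdhl, a dehydrogenase of the demethylation steps, had the lowest, 0.811 (0.726 to 0.906), with 31.7 and 25.7 CPM, followed by Acat2 with 0.814 (0.766 to 0.865). Both Ebp and Nsdhl are X-linked.

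Separated by the sex of the cell, the same class showed differences in opposite directions. In female cells the sum was 1458 CPM (1427 to 1489) over 245 cells in DMSO and 1897 CPM (1873 to 1921) over 506 cells in STK, a ratio of 1.30 (1.27 to 1.33). In male cells it was 1981 CPM (1959.8 to 2002) over 612 cells and 1715 CPM (1666 to 1764) over 106 cells, a ratio of 0.866 (0.839 to 0.892). The 4 intervals did not overlap, and female DMSO cells were the lowest of the 4 sets and male DMSO cells the highest. The pooled ratio near 1 thus joins unlike ratios from libraries in which 28.6% and 82.7% of the sexed cells were female. It rests on all 1169 and 839 cells of the class and so also holds those without a sex call.

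Among female cells 13 of 27 members were at least 1.5-fold higher in STK, against 13.1% of all genes, and Acat1 was lower, against 8.08%. Fdps had 126 and 268 CPM in female DMSO and STK cells, a ratio of 2.13 (1.96 to 2.30), and 291 and 263 CPM in male cells. Mvd, which forms isopentenyl diphosphate, had 10.7 and 25.0 CPM in female cells, a ratio of 2.33 (1.78 to 3.11), and 29.2 and 15.5 CPM in male cells, a ratio of 0.531 (0.379 to 0.726). Cyp51 had 22.6 and 45.9 CPM in female cells and 61.1 and 48.4 CPM in male cells. For these 3 genes female DMSO cells were the lowest of the 4 sets. The isoprenoid genes, summed, had a ratio of 1.86 (1.75 to 1.98) in female cells and the post-lanosterol genes 1.61 (1.52 to 1.71). The regulators differed less, at 1.28 (1.21 to 1.36), with Scap, Mbtps1 and Mbtps2 between 0.98 and 1.02 and Srebf2 at 1.25 (1.09 to 1.43). Acat1, which also serves ketone body metabolism, had 339 and 215 CPM in female and 158 and 109 CPM in male cells, so it was lower in STK cells of both sexes.

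Among male cells 8 of 27 members were at least 1.5-fold lower in STK, against 8.84% of all genes: Acat2, Mvk, Mvd, Lss, Tm7sf2, Nsdhl, Hsd17b7 and Dhcr7. Dhcr7 had 90.9 and 50.5 CPM in male cells, a ratio of 0.556 (0.465 to 0.662), and 51.1 and 78.2 CPM in female cells. Tm7sf2, a sterol reductase, had 16.6 and 6.14 CPM in male cells, a ratio of 0.369 (0.212 to 0.602). Ggps1 and Insig2 were higher, at 1.70 and 1.80, against 15.1% of all genes. Hmgcs1, Sqle, Msmo1 and Sc5d were above 1 in both sexes, with ratios of 1.57 to 1.74 among female cells and of 1.08 to 1.17 among male cells, and the male intervals of Sqle and Msmo1 included 1. The members of the pathway therefore did not share 1 direction in male cells.

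Other lists moved with these values. The fatty acid synthesis and SREBP1 list, 14 genes, summed to 761 and 1092 CPM in female cells, a ratio of 1.44 (1.39 to 1.49), and to 1281 and 864 CPM in male cells, 0.675 (0.647 to 0.704). The cell cycle list had ratios of 1.16 and 0.859 in female and male cells. The 12 hepatocyte or tumour markers had 20235 and 20760.4 CPM in female cells and 17970.3 and 12246 CPM in male cells, a ratio of 0.681 in the latter. Median depth was 24339 and 27207 UMIs per female cell and 29424.5 and 26081 UMIs per male cell of DMSO and STK. Their part in the members' differences was not tested, and sex, animal and tumour cannot be told apart.

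**Figure D4:**
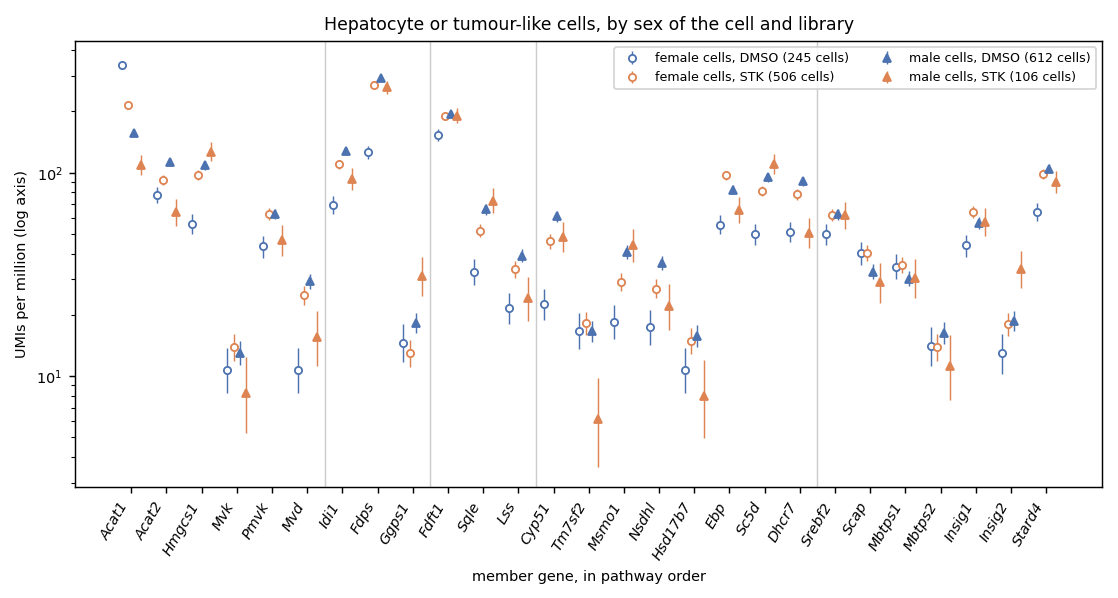
CPM (log axis) of each member in hepatocyte or tumour-like cells, for female (open circles) and male (filled triangles) cells of DMSO and STK, with exact 95% Poisson intervals. For Fdps, Mvd and Cyp51 the female DMSO value lies below the female STK value, while the male DMSO value lies above the male STK value.

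Over all classes few pairs of member and class differed between the libraries. Of 279 pairs with at least 30 UMIs over both libraries, hepatocyte or tumour-like cells included, 8 (2.87%) were at least 1.5-fold higher in STK and 19 (6.81%) at least 1.5-fold lower. The background over all 114155 pairs of gene and class was 6.57% higher and 8.11% lower, so over all cells of a class neither share of the members exceeded it. Within female cells 26 of 149 pairs (17.4%) were higher and 24 (16.1%) lower, against 14.2% and 13.7% of all pairs of gene and class. Of these, 13 of the higher pairs and 1 of the lower were the hepatocyte or tumour-like pairs described above. Within male cells 18 of 182 (9.89%) were higher, against 10.1%, and 34 (18.7%) lower, against 12.7%, 8 of them the hepatocyte or tumour-like pairs named above. The counting interval left out 1 for 5 of the 8 higher and 6 of the 19 lower pairs, and 6 and 17 of them rested on fewer than 100 UMIs. Summed ratios in immune classes ran from 0.854 in cDC1-like to 1.09 in neutrophil-like cells, the latter with an interval of 0.901 to 1.32. The interval lay above 1 in monocyte-like cells, 1.09 (1.02 to 1.16), and CD8 T-like cells, 1.07 (1.02 to 1.12). It lay below 1 in cDC1-like and pDC-like cells. The higher monocyte-like sum was seen in neither sex taken alone, as given below.

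Treg-like cells, the cell type named in the title of the study, had a summed level of 622 CPM (584 to 660.4) in DMSO and 673 CPM (632 to 716) in STK, a ratio of 1.08 (0.992 to 1.18). Of 21 members with enough UMIs, 2 were higher past the fold, against 5.93% of 8130 genes, and 1 was lower, against 8.5%. Their median log2 ratio was 0.13, beside -0.03 over all genes measured. Sc5d, a sterol desaturase near the end of the pathway, had 17.8 and 35.8 CPM, a ratio of 2.0 (1.26 to 3.25), which was 2.25 (1.08 to 4.68) in male cells and rested on 2 and 20 UMIs in female cells. Of 9 alternative values of this ratio 7 stayed past the fold, over a range of 1.20 to 2.55, and the lowest came from Treg-like cells taken from clusters instead of the marker gate. Acat2 had 11.9 and 19.6 CPM, a ratio of 1.65 (0.899 to 3.07), and Mvd 16.1 and 8.77 CPM, 0.546 (0.259 to 1.10), both with intervals that included 1.

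Over all Treg-like cells the remaining values stayed within the fold. In male Treg-like cells alone, 4 of 14 members were higher (8.34% of genes), Fdps, Fdft1, Sc5d and Mbtps1, and 3 lower (12.3%), Ggps1, Srebf2 and Insig2, while in female cells 1 of 3 was higher, Ebp (14.5%), and none lower (18.3%). In the mevalonate steps Acat1 had 51.2 and 69.5 CPM, a ratio of 1.36 (1.01 to 1.83), Hmgcs1 24.4 and 19.6 CPM and Pmvk 23.8 and 20.2 CPM. Idi1 had 20.8 and 25.6 CPM, Fdps 30.9 and 33.7 CPM, and Ggps1 37.5 and 25.6 CPM, a ratio of 0.684 (0.445 to 1.04). From squalene on, Fdft1 had 28.0 and 36.4 CPM, Cyp51 22.0 and 25.6 CPM, Nsdhl 9.52 and 12.1 CPM, Msmo1 11.3 and 8.77 CPM, Ebp 111 and 116 CPM and Dhcr7 17.8 and 17.5 CPM. Of these and the regulators, 18 genes, the interval left out 1 for Acat1 alone. Srebf2 had 38.1 and 34.4 CPM, Scap 14.9 and 18.2 CPM, Mbtps1 28.0 and 32.4 CPM, Insig1 19.0 and 27.7 CPM, Insig2 24.4 and 17.5 CPM and Stard4 26.2 and 23.6 CPM. Mvk, Sqle, Lss, Tm7sf2, Hsd17b7 and Mbtps2 had under 30 UMIs and were not compared.

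Conventional dendritic cells held 10 of the 19 lower pairs. In cDC1-like cells the sum was 728 and 621 CPM, a ratio of 0.854 (0.781 to 0.934), and 5 of 18 members were lower past the fold, against 8.71% of 7202 genes, and none higher, against 7.29%. Ggps1 had 35.0 and 14.4 CPM, a ratio of 0.412 (0.243 to 0.688), and Idi1 28.3 and 14.4 CPM, 0.509 (0.294 to 0.874). The 3 isoprenoid genes together had a ratio of 0.618 (0.505 to 0.756). Hmgcs1 had 23.3 and 13.3 CPM, Nsdhl 16.7 and 9.98 CPM, and Msmo1 14.2 and 9.43 CPM, with intervals that included 1. The class held 98 and 127 cells. Its summed ratio was 0.787 (0.695 to 0.891) in male cells, 1.15 (0.892 to 1.5) in female cells with 9 of them in DMSO, and 0.974 over the 31 and 43 cells without cell cycle UMIs.

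In cDC2-like cells 5 of 23 members were lower, against 11.4% of 8340 genes, and none higher, against 6.01%. The lowest ratios were those of the squalene genes. Fdft1 had 28.3 CPM in DMSO and 12.9 CPM in STK, a ratio of 0.455 (0.287 to 0.713), and Sqle 13.6 and 7.41 CPM, 0.544 (0.286 to 1.02). The 3 genes from squalene to lanosterol summed to 46.4 and 22.6 CPM, a ratio of 0.487 (0.345 to 0.684), while the mevalonate genes summed to 174 and 199 CPM, 1.15 (0.997 to 1.32). Acat1 gave 84.3 CPM of that sum in STK, and of the 6 mevalonate genes 2 were lower past the fold and none higher. Fdft1 had a ratio of 0.459 (0.192 to 0.987) in male cells and rested on 3 and 12 UMIs in female cells. Hmgcs1 had 28.3 and 18.3 CPM, 0.649 (0.431 to 0.973), but only 4 of its 10 alternative values stayed past the fold. Mvk had 11.1 and 7.02 CPM and Stard4 14.1 and 8.97 CPM, with intervals that included 1.

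pDC-like cells, the immune class with the highest level, had 2 of 27 members lower, against 5.14% of 9560 genes, and none higher, against 6.49%. Mvd had 22.5 and 11.1 CPM, a ratio of 0.493 (0.334 to 0.722). In male cells Mvd had a ratio of 0.440 (0.178 to 0.952), and in female cells 10.5 and 9.53 CPM from 4 and 24 UMIs. Stard4 had 10.6 and 5.91 CPM, 0.555 (0.318 to 0.959). The summed ratio was 0.943 (0.902 to 0.987).

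**Figure D5:**
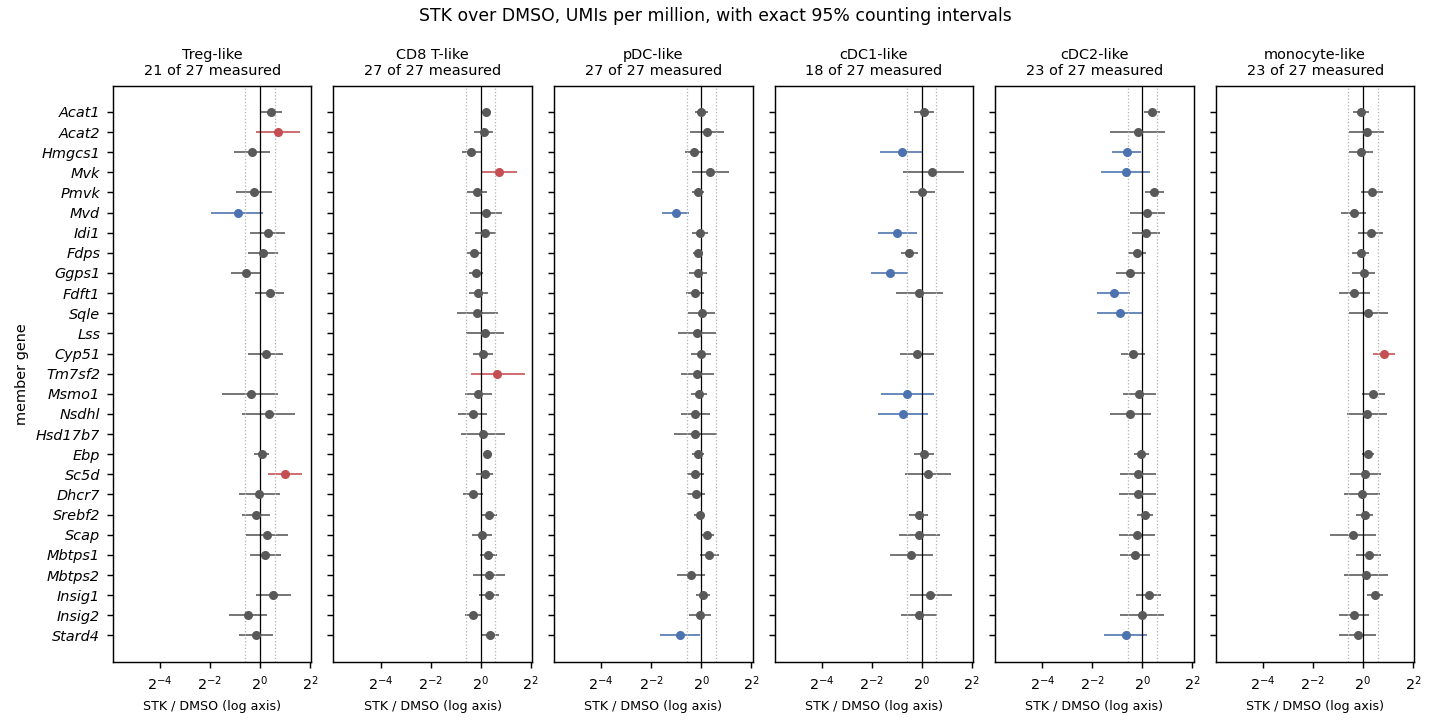
Ratio of CPM in STK over DMSO (horizontal log axis) for each member with at least 30 UMIs in 6 immune classes, with exact 95% counting intervals. Dotted lines mark the 1.5 fold, red points are higher and blue points lower past it, with 2 red and 1 blue in Treg-like cells and 5 blue each in cDC1-like and cDC2-like cells.

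Cyp51 made up 3 of the 8 higher pairs. In monocyte-like cells it had 19.8 and 35.6 CPM, a ratio of 1.80 (1.33 to 2.45), the only member higher, against 5.64% of genes, with none lower, against 9.54%. In macrophage-like cells it had 8.95 and 16.2 CPM, 1.81 (1.29 to 2.58), against 4.96% higher and none of the members against 7.66% lower. In CD4 T-like cells it had 15.7 and 31.0 CPM, 1.97 (1.14 to 3.50), against 8.02% higher and none against 10.4% lower. Within male cells the monocyte-like ratio was 1.14 (0.502 to 2.37) and the macrophage-like ratio 0.959 (0.454 to 1.92), and within female cells they were 2.22 (0.893 to 7.10) and 1.00 (0.407 to 3.19). The macrophage-like difference was thus seen in neither sex taken alone. Cyp51 overlaps Akap9 on the opposite strand, and since strand use in counting is not known here, reads of the pair cannot be told apart.

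The other values past the fold were scattered. CD8 T-like cells had 2 of 27 members higher (5.74% of genes) and none lower (5.79%): Mvk with 4.54 and 7.51 CPM, 1.65 (1.02 to 2.74), and Tm7sf2 with 2.10 and 3.29 CPM, 1.57 (0.761 to 3.44). Acat1 was higher in migratory dendritic cell-like cells, with 23.3 and 37.6 CPM, 1.62 (0.967 to 2.77), 1 of 14 members against 8.29% of genes, and none was lower (9.34%). Non-classical monocyte-like cells had 3 of 19 members lower (10.8%) and none higher (7.04%), with Stard4 at 0.552, Fdft1 at 0.585 and Idi1 at 0.601. Sqle in NK-like cells (0.580, 8.11%), Insig2 in B-like cells (0.616, 9.0%) and Acat1 in neutrophil-like cells (0.574, 11.6%) were each the single member lower there, with none higher against 5.11%, 11.2% and 9.65% of genes. The intervals of these last 6 ratios all included 1.

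The comparison lists describe neighbouring pathways, with few genes each. Over all genes measured, 5.93% were higher and 8.5% lower past the fold in Treg-like cells. The shares were 6.01% and 11.4% in cDC2-like cells and 7.29% and 8.71% in cDC1-like cells. In Treg-like cells none of 8 measured fatty acid and SREBP1 genes was higher and 1 was lower, with a median log2 ratio of 0.07, and none of 8 isoprenoid-using genes was higher and 1 was lower, with a median of -0.33. In cDC2-like cells 2 of 10 isoprenoid-using genes were higher and 1 lower, with a median of 0.29, and the 15 cell cycle genes had a median of 0.37. In cDC1-like cells 4 of the 15 cell cycle genes were lower, with a median of -0.26, beside the lower members of that class. In pDC-like cells 12 fatty acid and SREBP1 genes had a median of -0.33 and the members -0.13, beside 0.01 over all genes. Among 14 genes of sterol trafficking and the lanosterol side that are not members, none passed the fold in CD8 T-like, macrophage-like or hepatocyte or tumour-like cells. Over all genes of these classes, 4.96% to 6.06% were higher and 3.67% to 7.66% lower. In Treg-like cells 1 of 12 measured was lower. In cDC1-like cells 1 of 11 was higher and 1 lower, and in cDC2-like cells 1 of 14 was higher and 2 lower. NK-like, pDC-like, neutrophil-like and both monocyte classes also had genes of this list past the fold. Over all genes of those classes, 5.11% to 9.65% were higher and 5.14% to 11.6% lower.

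Positions bear on a few of these values. In GENCODE vM21, on GRCm38, Fdft1 (chr14:63145150-63179578, minus strand) overlaps Ctsb, a cathepsin abundant in myeloid cells, and Ggps1 (chr13:14050659-14063488, minus strand) overlaps Arid4b, both on the opposite strand. Tm7sf2 (chr19:6062821-6068373, minus strand) overlaps Vps51 on its own strand, and Mbtps2 (chrX:157535371-157598715, minus strand) overlaps Yy2 on its own strand. Counts of these members may therefore include reads of the partner gene, and reads of the pairs cannot be told apart.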

How the data were processed

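The authors deposited raw UMI counts per gene and barcode for both libraries, written by Cell Ranger 6.0.2 per the file headers, with reads placed on GRCm38 (mm10) per the submitters' processing notes. The annotation release and strand use in counting were not given in the sources used here. Cells with at least 500 UMIs, 250 genes and at most 10% mitochondrial UMIs were kept, which left out 632 DMSO and 826 STK barcodes.

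Cells were gated on markers, and cells in gates of different lineages entered no class. Gate thresholds were set after the marker distributions had been seen, and the members and lists were chosen with earlier results of these data known. Doublets were not removed: the automatic Scrublet threshold (scanpy 1.11.5) marked 217 DMSO and 0 STK cells, so an alternative left out the highest-scoring 870 and 836 cells.

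UMIs were summed per class and library and scaled to CPM, with exact Poisson intervals, and ratios have exact conditional binomial intervals (scipy 1.17.1). These intervals cover counting error only. Comparisons took genes reaching 30 UMIs in the pair of libraries, a library under 3 UMIs was set to 3, and a ratio of at least 1.5 or at most its inverse was called. Named genes are all members past that fold, at most 4 each way per class, and every measured member in Treg-like cells. In cDC1-like and cDC2-like cells the fifth lower gene is named too, chosen after its value was seen. The genes named within female and male hepatocyte or tumour-like cells were also chosen after their values were seen. Class profiles were compared with the median of the other immune classes in both libraries. Ratios and intervals were computed on simulated Poisson counts with known folds, drawn from the means of pDC-like cells. Such counts hold no spread between cells or animals, so they check the computation and not how well the intervals describe real counts. Alternatives covered scaling, cell weighting, doublets, gates, clusters, the mitochondrial limit, cycling cells, cell sex, hepatocyte RNA and UMI minimum.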

Additional observations from a re-analysis of the deposited data

Results flagged for a closer look

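The ratio of STK to DMSO in hepatocyte or tumour-like cells had its counting interval above 1 in female cells and below 1 in male cells for the summed members and for 12 single members. For the sum it was 1.30 among female cells and 0.866 among male cells. In female and male cells respectively it was 1.19 and 0.564 for Acat2, 1.45 and 0.742 for Pmvk, 2.33 and 0.531 for Mvd, 1.58 and 0.728 for Idi1, and 2.13 and 0.903 for Fdps. It was 1.55 and 0.618 for Lss, 2.03 and 0.792 for Cyp51, 1.55 and 0.609 for Nsdhl, 1.39 and 0.503 for Hsd17b7, 1.74 and 0.797 for Ebp, 1.53 and 0.556 for Dhcr7, and 1.53 and 0.858 for Stard4. The difference between the sexes was not tested, since each ratio compares 1 library with 1 library, and sex, animal and tumour cannot be told apart. The share of all genes of the class with such opposite intervals was not counted, so whether the 12 members exceed it cannot be said. No immune class showed such opposite intervals, for the sum or for any member with at least 30 UMIs in both sexes. In macrophage-like and non-classical monocyte-like cells Srebf2 was at least 1.5-fold higher in STK among female cells and at least 1.5-fold lower among male cells. Immune classes held 3 to 81 female DMSO cells, against 245 in hepatocyte or tumour-like cells, so intervals on both sides of 1 were harder to reach there.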

How the results depend on the processing

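No paired analysis was possible because each group has 1 library. Main values stand in the report, and the cause of the changes below was not tested. The pairs at least 1.5-fold higher, 8 in the main setting, numbered 14 with means over cells, 20 with classes from clusters, 20 without cycling cells, 26 of 149 in female cells (14.2% of all pairs), 18 of 182 in male cells (10.1%), 24 with no UMI minimum and 2 with a minimum of 100 UMIs. The 19 lower pairs numbered 34 of 182 in male cells (12.7%), 37 with no minimum and 2 with a minimum of 100 UMIs. The counts with no minimum and with 100 UMIs test more or fewer genes by construction. For the settings without a share beside them, no share over all pairs of gene and class was counted. Whether their changes exceed those of all genes therefore cannot be said.

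The summed ratio of STK to DMSO moved in hepatocyte or tumour-like cells to 1.30 in female cells, 0.866 in male cells, 0.989 with clusters and 1.52 over the 39 and 41 cells without cycling UMIs. In female cells it moved to 0.837 in pDC-like, 1.18 in non-classical monocyte-like, 0.729 in neutrophil-like, 0.914 in migratory DC-like (3 DMSO cells), 1.14 in cDC2-like, 1.15 in cDC1-like (9 DMSO cells), 0.998 in monocyte-like, 0.886 in NK-like, 1.00 in CD8 T-like and 0.825 in CD4 T-like cells. In male cells it moved to 0.948 in macrophage-like, 0.487 in B-like, 0.987 in monocyte-like and 0.988 in pDC-like cells. With clusters it was 1.35 in neutrophil-like and 1.08 in macrophage-like cells, and without cycling cells 0.974 in cDC1-like cells.

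Of the ratios over the median immune class, leaving out Ebp, the most abundant member, gave 3.78 and 3.53 for hepatocyte or tumour-like cells in DMSO and STK and 2.08 and 1.85 for pDC-like cells. A total without mitochondrial, ribosomal, haemoglobin and receptor genes gave 3.10, 3.21, 1.67 and 1.61 in the same order. Without the cells of highest doublet score the values were 3.48 for hepatocyte or tumour-like cells in DMSO and 2.04 and 1.76 for pDC-like cells, and with means over cells 3.27 for hepatocyte or tumour-like cells in DMSO and 1.79 for pDC-like cells in STK. With cycling set at 1 UMI the ratio of cycling to other cells was 1.03 in DMSO macrophage-like cells, and 0.975 and 1.02 in DMSO and STK pDC-like cells.

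Of 383 alternative values for 45 named pairs of member and class, 368 kept their value within its counting interval, 12 moved and 3 changed direction: Tm7sf2 in CD8 T-like cells (0.937 with clusters), Acat1 in neutrophil-like cells (1.22 with clusters) and Cyp51 in macrophage-like cells (0.959 in male cells). For the 27 pairs past the fold, 184 of 222 alternative values stayed past it on the same side, with 5 of 8 for Nsdhl in cDC1-like, 5 of 7 for Sqle in cDC2-like and 6 of 8 for Tm7sf2 in CD8 T-like cells. Fdft1 in cDC2-like, Ggps1 in cDC1-like and Mvd in pDC-like cells stayed past the fold in all 10, 9 and 10 alternatives run for them. For Fdft1 and Mvd these alternatives leave out female cells, which had under 30 UMIs of either gene in those classes. The Mvd levels of female pDC-like cells given above were not past the fold. Depth limits the smaller classes, where most pairs past the fold rested on fewer than 100 UMIs.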
